A study of Mus musculus with 35 samples.

Results

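The miR-200 family consists of 5 mouse miRNAs, miR-200a, miR-200b, miR-200c, miR-141 and miR-429, and its members were sought by name among the 376 miRNAs of a PCR array. The name rule found 3 of them, mmu-miR-200a, mmu-miR-429 and mmu-miR-141. The well list names miR-200b and miR-200c only as their star forms, mmu-miR-200b* and mmu-miR-200c*, which are the strands from the other arm of the hairpin; the star forms lie outside the rule and are given below as companions only.

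These miRNAs are known for keeping epithelial cells epithelial. They bind the mRNAs of the transcription factors ZEB1 and ZEB2, which repress E-cadherin, and ZEB1 and ZEB2 in turn repress the miR-200 genes. Whole liver is mostly hepatocytes by mass, with bile duct epithelium as a smaller epithelial compartment in which the family is known to be expressed.

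Small RNA came from the livers of 35 female Big Blue Transgenic mice (Stratagene), which carry a mutation reporter transgene in every group, controls included, and which were treated at 6 months of age. N-ethyl-N-nitrosourea (ENU), an alkylating agent that transfers ethyl groups to DNA bases, was given as 1 intraperitoneal injection of 120 mg/kg, and livers were taken at post-treatment day (PTD) 1, 3, 7 and 15 from 5 mice each and at PTD 30 and 120 from 4 mice each. The 7 control mice received the vehicle DMSO, 3 of them with the label day 1 and 4 with the label day 30. The study's methods give these counts the other way round. They pool the controls into a single group, and the same was done here. Every mouse had 1 array, and the same replicate number in different groups denotes different mice.

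The mature sequences show why the family is usually split into seed groups. The seed, bases 2 to 8 from the 5' end, is the stretch that pairs with target mRNAs and is in capitals below; sequences and positions are those of RefSeq on GRCm38.p6, where all 5 hairpins lie on the minus strand.
mmu-miR-200a-3p: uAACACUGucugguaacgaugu
mmu-miR-141-3p: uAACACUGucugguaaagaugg
mmu-miR-429-3p: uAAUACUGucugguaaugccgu
mmu-miR-200b-3p: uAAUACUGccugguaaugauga
mmu-miR-200c-3p: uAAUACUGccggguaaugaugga
mmu-miR-200b-5p: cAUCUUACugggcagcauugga
mmu-miR-200c-5p: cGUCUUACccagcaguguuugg
The first 5 are the family's guide strands and the last 2 are the strands named 200b* and 200c* on the array. miR-200a and miR-141 share the seed AACACUG, while miR-429, miR-200b and miR-200c share AAUACUG. The genes are grouped differently. Mir429, Mir200a and Mir200b lie within 1846 bases on chromosome 4 (chr4:156053905-156055750), inside a stretch also annotated as Gm13648, with miR-429-3p at chr4:156053916-156053937, miR-200a-3p at chr4:156054911-156054932 and miR-200b-3p at chr4:156055685-156055706. Mir141 and Mir200c lie within 477 bases on chromosome 6 (chr6:124717914-124718390), between Phb2 and Ptpn6 and overlapping no other annotated gene, with miR-141-3p at chr6:124717917-124717938 and miR-200c-3p at chr6:124718324-124718346. The 3 measured members therefore form 3 kinds of pair: miR-200a and miR-429 share a cluster but not a seed, miR-200a and miR-141 share a seed but not a cluster, and miR-429 and miR-141 share neither. miR-200a and miR-141 are identical at 20 of 22 positions and differ by C17A and U22G (the miR-200a base first, counted from the 5' end), whereas miR-200a and miR-429 are identical at 18 and miR-429 and miR-141 at 17. Whether the assay of 1 member also amplified another was not tested.

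A value is the threshold cycle (Ct), the PCR cycle at which a well's fluorescence crossed a fixed line. A level is given as -ΔCt, the mean Ct of 4 reference RNAs on the same array minus the Ct of the miRNA, so that 1 unit is a 2-fold difference where the product doubles in each cycle and a value nearer to 0 is a higher level. All wells of the 3 members and of both star forms had a Ct on all 35 arrays. Of the other miRNA wells, 15 on 11 arrays had none. miR-122, the miRNA that dominates hepatocytes, had the lowest mean Ct of all 376 miRNAs, 14.5. The arrays were run in 3 separate periods: the first held 3 controls, 4 of the 5 PTD 1 arrays and all arrays of PTD 3, 7 and 15; the second held 2 controls, 1 PTD 1 array and all arrays of PTD 30 and 120; the third held 2 controls. Within the first period the groups were run one after the other in order of PTD, so that run order and PTD cannot be told apart there.

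All 3 members were measured well inside the range of the array. miR-200a had a mean Ct of 25.3 (23.3 to 26.6), the 91st lowest of 376, and a mean level of -3.34 over all arrays. miR-429 had a mean Ct of 26.7 (24.6 to 28.8), rank 118, and miR-141 a mean Ct of 29.4 (27.1 to 32.5), rank 187. The star forms were lower, with mean Cts of 30.4 for miR-200b* and 31.4 for miR-200c*. miR-200a read above miR-429 in 35 of 35 arrays, and miR-429 above miR-141 in 35 of 35; this is an order of Ct values, since different assays need not amplify equally well, and not of molecules. In the controls the SD of -ΔCt was 0.898 for miR-200a, 1.13 for miR-429 and 0.822 for miR-141 (n = 7), against a median SD of 0.668 over the miRNAs whose Ct averaged 30 or less, of which 14 had a larger SD than miR-429, 44 than miR-200a and 64 than miR-141. The median SD over all miRNAs was 0.832, close to that of miR-141.

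miR-200a, the member of the chromosome 4 cluster with the AACACUG seed, ran from -4.46 to -1.91 in the 7 controls with a median of -3.58. The PTD 1 livers held -3.51, -5.34, -4.60, -3.71 and -2.57, and the PTD 3 livers -3.86, -2.88, -4.39, -3.22 and -4.14. The PTD 7 livers held -4.02, -4.75, -3.77, -3.82 and -3.08, and the PTD 15 livers -3.75, -3.08, -2.97, -3.89 and -3.08. Up to PTD 15 the treated livers thus lay mostly in the lower part of the control range. At PTD 30 the 4 livers held -2.30, -2.15, -1.42 and -2.73, and at PTD 120 they held -3.36, -2.09, -2.78 and -2.56. PTD 30 was the group with the highest miR-200a, all 4 livers above the control mean of -3.28. Control day 1 replicate 2, at -1.91, lay inside its range. So did control day 30 replicates 1 and 2, at -2.71 and -2.61, which were run in the same period as PTD 30.

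miR-429, encoded beside miR-200a but with the other seed, ran from -6.43 to -3.27 in the controls with a median of -4.50. The PTD 1 livers held -5.26, -6.67, -6.12, -4.84 and -3.86, and the PTD 3 livers -5.16, -4.51, -5.41, -3.98 and -5.26. The PTD 7 livers held -5.04, -5.81, -4.86, -5.15 and -4.19, and the PTD 15 livers -4.94, -4.04, -4.13, -4.95 and -3.98. The order of livers within each of these groups was close to that of miR-200a, with the same liver lowest at PTD 1, 3, 7 and 15; at PTD 3 this was replicate 3, whose Cts are in doubt for a reason given with the PTD 3 fold changes. At PTD 30 the livers held -3.27, -3.31, -2.62 and -7.12, and at PTD 120 they held -4.54, -3.30, -4.15 and -4.14. PTD 30 replicate 4 was the lowest value of miR-429 in the whole study, while the other 3 PTD 30 livers lay around or above the highest control, at -3.27, with replicate 2 just below it.

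miR-141, from the chromosome 6 cluster and with the seed of miR-200a, ran from -8.35 to -5.78 in the controls with a median of -7.52. The PTD 1 livers held -8.27, -9.27, -7.71, -8.16 and -6.77, and the PTD 3 livers -7.69, -7.19, -6.52, -6.29 and -7.07. The PTD 7 livers held -7.26, -7.55, -7.21, -7.61 and -6.35, and the PTD 15 livers -6.45, -6.61, -5.92, -7.17 and -7.39. All 5 PTD 15 livers were above the control mean of -7.46, and none of them was above control day 1 replicate 2, at -5.78. At PTD 30 the livers held -7.90, -6.75, -6.82 and -10.8, and at PTD 120 they held -8.04, -6.73, -7.75 and -6.68. The value of PTD 30 replicate 4 was again the lowest in the study.

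**Figure D1:**
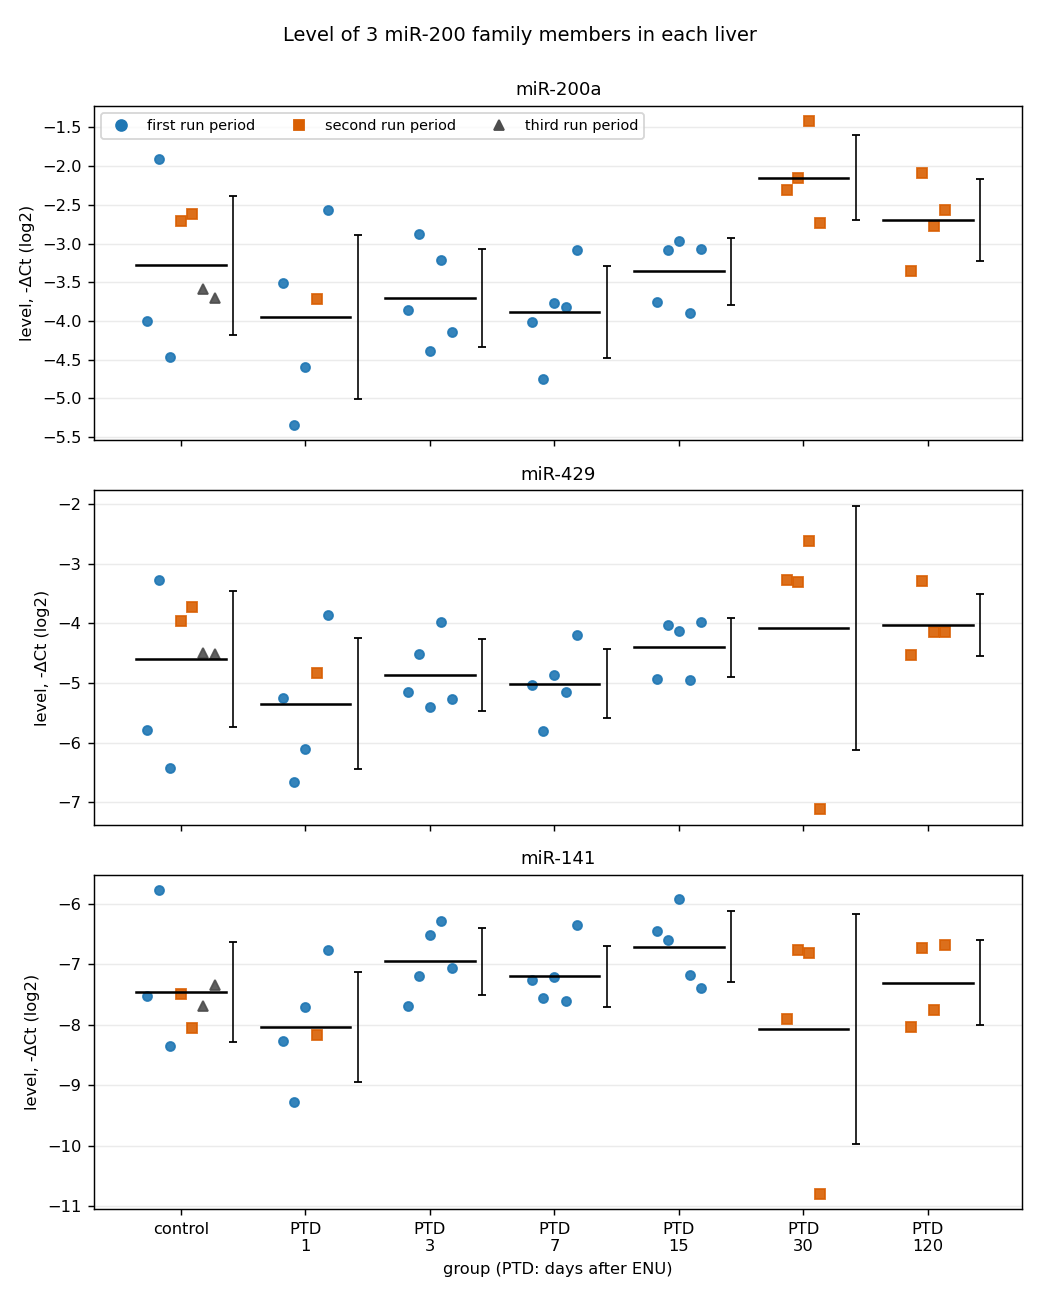
Level (-ΔCt, log2 scale, higher is more) of miR-200a, miR-429 and miR-141 in each of the 35 livers by group; marker shape and colour give the run period, the horizontal line is the group mean and the bar beside it 1 SD. The controls spread over 2.55 to 3.15 units in each panel, the treated groups overlap them at every PTD, and 1 PTD 30 array lies at -7.12 for miR-429 and -10.8 for miR-141.

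That array stood apart in a patch of the plate. miR-429 is in well M1 and miR-141 in the adjacent well M2; on PTD 30 replicate 4, after centring on the array's median, they came 3.48 and 3.07 cycles later than the mean of the other 3 PTD 30 arrays. Well N2 below them (miR-384-5p) came 3.96 cycles later, and well N1 (miR-466b-5p), at 33.2 to 33.9 on the other 3 arrays, had no Ct. N2, M1 and M2 were the 3 latest of all miRNA wells of that array by this measure. The 8 wells around this block of 4 deviated by -0.88 to 0.46 cycles, and miR-200a in well E5 by 0.21. On the other 34 arrays, compared in the same way with the rest of their group, none had all 4 wells over 2 cycles late. No array was left out of the main values, and PTD 30 values of miR-429 and miR-141 are given without this array too where it changes their size or sign.

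**Figure D2:**
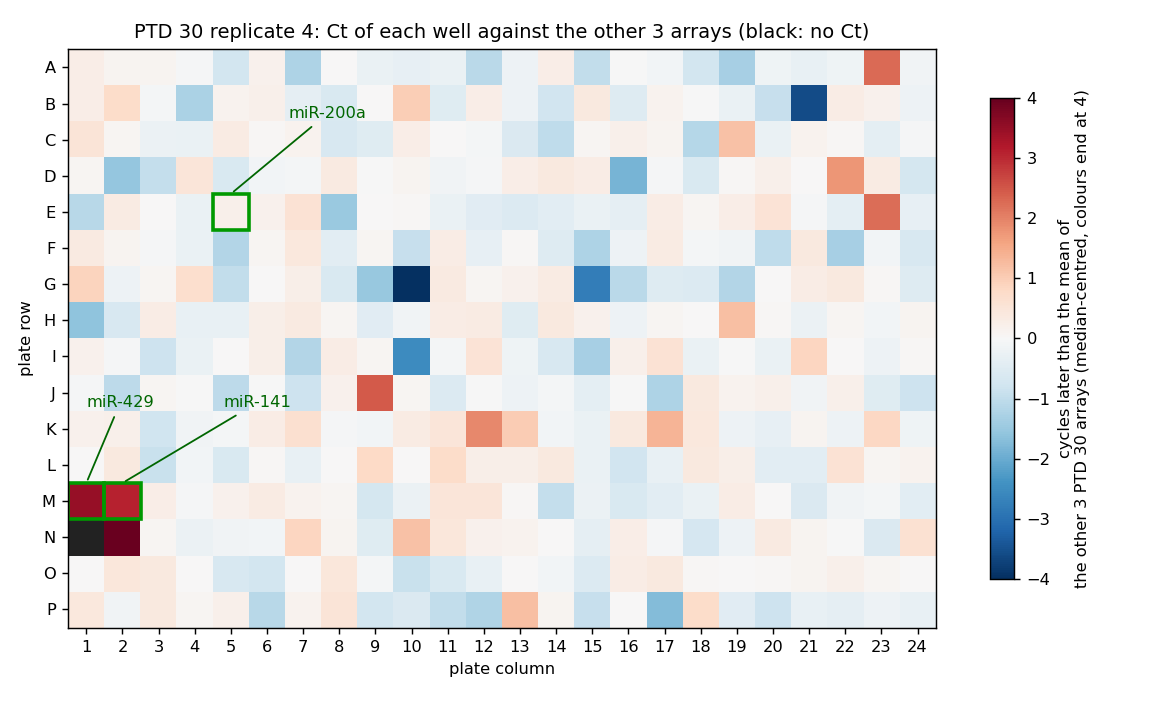
Plate map of PTD 30 replicate 4: each square is a well, coloured by how many cycles later (red) or earlier (blue) it crossed the threshold than the mean of the other 3 PTD 30 arrays, centred on the median; black is a well without a Ct and the colours end at 4 cycles. Wells M1 (miR-429), M2 (miR-141) and N2 are 3.48, 3.07 and 3.96 cycles late and N1 has no Ct, while miR-200a in E5 is 0.21 cycles late.

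The first question was whether ENU altered the members at any PTD. A miRNA was called a differentially expressed miRNA (DEM) at an unadjusted limma p under 0.01 and a fold change above 2, and adjusted p-values are Benjamini-Hochberg over all 376 miRNAs. These are the thresholds that the methods of the study name. By this rule no member was a DEM in any of its 6 comparisons, 0 of 18 in all. The shares of all miRNAs called for PTD 1, 3, 7, 15, 30 and 120 were 1.33%, 2.13%, 9.84%, 11.4%, 1.60% and 1.33%, and 0 of 3 members is no departure from shares of this size. In 18 exact permutation tests (two-sided, over all splits of the livers) the lowest p was 0.0606, and no treated group lay wholly outside the control range; with 7 controls the smallest p these tests allow is 0.00126 against 5 livers and 0.00303 against 4.

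Over all arrays the largest change was that of miR-200a at PTD 30. Its log2 fold change was 1.13 (SE 0.48, 95% interval 0.09 to 2.17), a 2.19-fold higher level, with a limma p of 0.035 and an adjusted p of 0.43. The median of all 376 miRNAs was itself 0.54 at PTD 30 on this scale. With each array's median Ct in place of the reference RNAs the miR-200a difference was 0.72. Set against the 2 controls run in the same period, at -2.71 and -2.61, it was 0.51 (exact permutation p = 0.33, the smallest possible being 0.0667). Without control day 1 replicate 2, the highest control for all 3 members, it became 1.36 and passed both thresholds (limma adjusted p = 0.60), as did 5 of all 376 miRNAs.

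At the earlier PTDs miR-200a was nominally lower than the controls. The log2 fold changes for PTD 1, 3, 7 and 15 were -0.66 (95% interval -1.80 to 0.47), -0.42 (-1.41 to 0.58), -0.60 (-1.56 to 0.36) and -0.07 (-0.998 to 0.85), in that order. At PTD 120 the value was 0.59 (-0.45 to 1.63). None of these 5 differences was called, with adjusted p-values from limma of 0.42 to 0.92. All of these intervals but that of PTD 15 reach past a 2-fold change in 1 direction. At PTD 3 the deposited Cts of replicate 3 are not those that a supplement of the study lists for that array, while all other arrays have the same values in both; the deposited Cts were used. Without that array the PTD 3 values were -0.24 for miR-200a, -0.13 for miR-429 and 0.40 for miR-141, none of them called.

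The differences of miR-429 had the sign of those of miR-200a at every PTD but 15, and none was called. Its log2 fold changes for PTD 1, 3, 7 and 15 were -0.75, -0.27, -0.41 and 0.19, followed by 0.52 (SE 0.81) for PTD 30 and 0.57 (SE 0.56) for PTD 120. The limma adjusted p-values ran from 0.62 to 0.93. Without PTD 30 replicate 4 the PTD 30 value was 1.53 (SE 0.63, limma adjusted p = 0.32). That of miR-200a over the same 3 livers was 1.33 (SE 0.54), and neither was called. The exact permutation p over these 3 livers and the 7 controls was 0.05 for each. Set against the 2 controls of the second run period the miR-429 difference at PTD 30 was -0.24 over all 4 livers and 0.77 without replicate 4 (exact permutation p = 0.10, the smallest possible), and at PTD 120 it was -0.19.

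miR-141 differed nominally in the other direction from miR-200a at PTD 3, 7 and 15. At PTD 1, where all 3 members were nominally lower, its value was -0.58 (log2). It was 0.51 and 0.26 for PTD 3 and 7, and 0.75 (SE 0.42, limma adjusted p = 0.26) for PTD 15. At PTD 15 all 5 livers were above the control mean, and the interval was -0.16 to 1.67. Without control day 1 replicate 2 this value was 1.03 and passed both thresholds (limma adjusted p = 0.080), as did 37 of all 376 miRNAs. Within the first run period it was 0.51 (exact permutation p = 0.45). At PTD 30 the value was -0.61 (SE 0.71), which turned to 0.30 (SE 0.52) without replicate 4, and at PTD 120 it was 0.16. Within the second run period the PTD 30 value was -0.30, or 0.61 without replicate 4 (exact permutation p = 0.30).

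**Figure D3:**
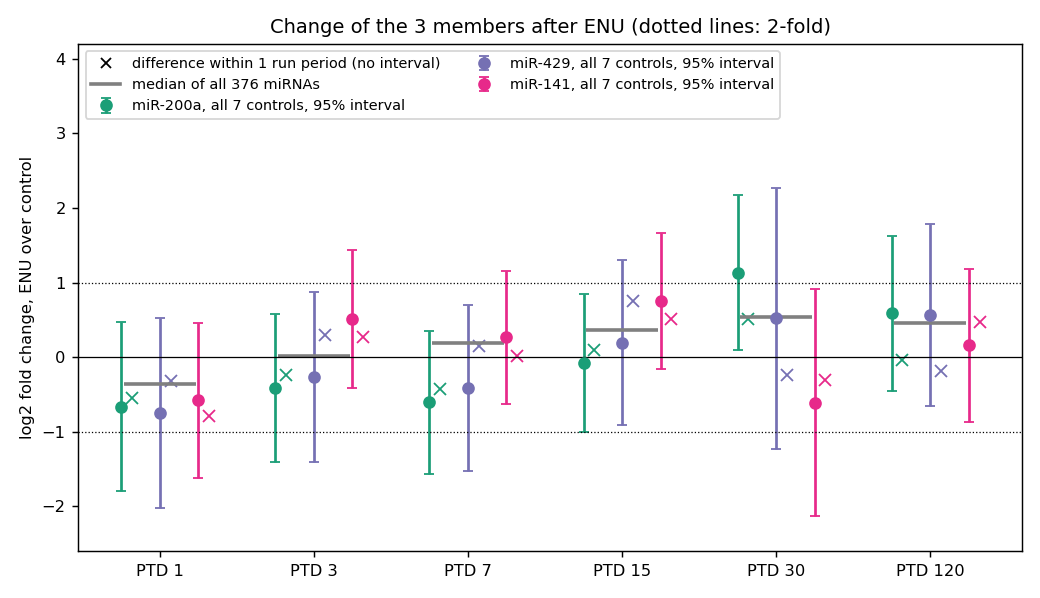
Log2 fold change of each member, ENU over control, at the 6 PTDs: dots with 95% limma intervals use all 7 controls, crosses use only the arrays and controls of the same run period, grey bars are the median of all 376 miRNAs and dotted lines mark 2-fold. Only the miR-200a interval at PTD 30 (0.09 to 2.17) leaves out 0, and the matching cross is at 0.51.

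A test of any variation over the 7 groups, limma's moderated F test with Benjamini-Hochberg adjustment over 376 miRNAs, was passed by miR-200a (adjusted p = 0.029), as by 41.0% of all miRNAs. miR-141 (adjusted p = 0.23) and miR-429 (0.44) did not pass. Without PTD 30 replicate 4, miR-429 passed too (adjusted p = 0.034) and miR-200a still did (0.027). The miR-200a call was lost with the array median as reference (0.25), and also on leaving out PTD 1 replicate 3 (0.054), PTD 30 replicate 2 (0.057) or PTD 30 replicate 3 (0.081).

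The group means were then put in order. For miR-200a the order ran from PTD 1 (-3.95) through PTD 7, 3 and 15 to the controls (-3.28), PTD 120 (-2.70) and PTD 30 (-2.15). Exact permutation tests between neighbours in that order gave p-values of 0.26 to 0.91. For miR-429 PTD 1 was lowest (-5.35) and PTD 120 (-4.03) and PTD 30 (-4.08) highest, and for miR-141 PTD 30 (-8.07) and PTD 1 (-8.04) were lowest and PTD 15 (-6.71) highest, with exact permutation p-values between neighbours of 0.57 to 0.97 and 0.29 to 0.96. The place of PTD 30 depends on its replicate 4. Without that array PTD 30 was the highest group for miR-429 (-3.07) and the 5th from the lowest for miR-141 (-7.16). The lowest exact permutation p between neighbours was then 0.086, for miR-429 at PTD 30 against PTD 120 (-4.03). The smallest possible p with 3 livers against 4 is 0.029. Among the ENU groups themselves, the miR-200a levels at PTD 30 lay wholly above those at PTD 3, 7 and 15. The differences were 1.55, 1.74 and 1.21 (exact permutation p = 0.016, 0.016 and 0.0079), but over the 45 tests of 3 members and 15 pairs of PTDs the lowest adjusted p was 0.20. Each of these 3 pairs also sets the second run period against the first. miR-141 was higher at PTD 15 than at PTD 1 by 1.33 (exact permutation p = 0.032, adjusted p = 0.20), and 4 of the 5 PTD 1 arrays were run in the same period as those of PTD 15.

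Differences between members within an array do not depend on the reference RNAs, and they were compared as a second question: did members of a cluster or of a seed group keep a constant distance? miR-200a stood 1.32 ± 0.43 (SD, n = 7) cycles above miR-429 in the controls. Over the 34 arrays other than PTD 30 replicate 4 this distance stayed between 0.77 and 1.96, with an SD of 0.276, while miR-200a itself ranged over 3.93 units in level. On PTD 30 replicate 4 it was 4.39. The changes of the distance for PTD 1, 3, 7, 15, 30 and 120 were 0.09, -0.15, -0.19, -0.27, 0.61 and 0.02, with exact permutation p-values of 0.23 to 0.92; without replicate 4 the PTD 30 value was -0.20.

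Within the first run period the cluster mates were nominally closer at PTD 1, 3, 7 and 15 than in the controls. The 3 controls of that period held 1.79, 1.36 and 1.96, whereas the PTD 7 arrays held 1.02 to 1.34 and the PTD 15 arrays 0.90 to 1.18, without overlap. The changes were -0.58 at PTD 7 and -0.65 at PTD 15, each with the smallest exact permutation p that 3 against 5 allows (0.0179), or 0.16 after Benjamini-Hochberg adjustment over the 18 within-period tests. At PTD 1 and 3 they were -0.23 and -0.54 (exact permutation p = 0.23 and 0.071), and the PTD 3 arrays, at 0.77 to 1.63, overlapped the controls. The 4 controls of the other run periods, at 1.25, 1.11, 0.92 and 0.81, lay in the range of the PTD 7 and PTD 15 arrays or just below it.

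miR-200a and miR-141, which share the seed but not the cluster, kept a looser distance. miR-200a stood 4.18 ± 0.69 (SD, n = 7) above miR-141 in the controls, and the SD over the 34 arrays was 0.843. The changes of this distance for PTD 1, 3, 7 and 15 were -0.08, -0.93, -0.87 and -0.83, and those for PTD 30 and 120 were 1.74 and 0.43. Without PTD 3 replicate 3, whose Cts are in doubt, the PTD 3 change was -0.65. The exact permutation p was 0.021 at PTD 7 and 0.018 at PTD 30, and 0.19 for both after Benjamini-Hochberg adjustment over 18 tests; without PTD 30 replicate 4 the PTD 30 change was 1.03 (p = 0.083). The controls themselves differed by run period in this distance, with 3.52, 3.87 and 3.89 in the first, 4.78 and 5.44 in the second and 4.11 and 3.63 in the third. Within 1 run period the changes for PTD 3, 7, 15, 30 and 120 were -0.51, -0.45, -0.41, 0.81 and -0.50, with exact permutation p-values of 0.11 to 0.73, and the PTD 30 change was 0.09 without replicate 4 (p = 0.90). The Ct difference between the reverse transcription control wells, which compares wells of the same control, was set beside this distance. At PTD 3 the 3 arrays where this Ct difference was above 0 held 2.13 (replicate 3, whose Cts are in doubt), 2.93 and 3.07. The other 2 PTD 3 arrays held 3.82 and 4.31. At PTD 15 the 3 arrays with a Ct difference above 0 held 2.95 to 4.31 and the other 2 held 2.69 and 3.52. The part of the reverse transcription step in this distance was not tested.

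miR-429 and miR-141 share neither seed nor cluster. miR-429 stood 2.86 ± 0.91 (SD, n = 7) above miR-141 in the controls, with 1.73 to 2.50 in the first run period, 3.53 and 4.33 in the second and 3.19 and 2.82 in the third. The pooled changes were -0.78 at PTD 3 and 1.13 at PTD 30 (exact permutation p = 0.13 and 0.055), and within a run period they were 0.03 and 0.06. Without PTD 30 replicate 4 the PTD 30 changes were 1.23 pooled and 0.16 within the run period. Without PTD 3 replicate 3, whose Cts are in doubt, the pooled PTD 3 change was -0.53. PTD 30 replicate 4, at 3.68, was not apart in this distance, since both wells were late on that array.

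**Figure D4:**
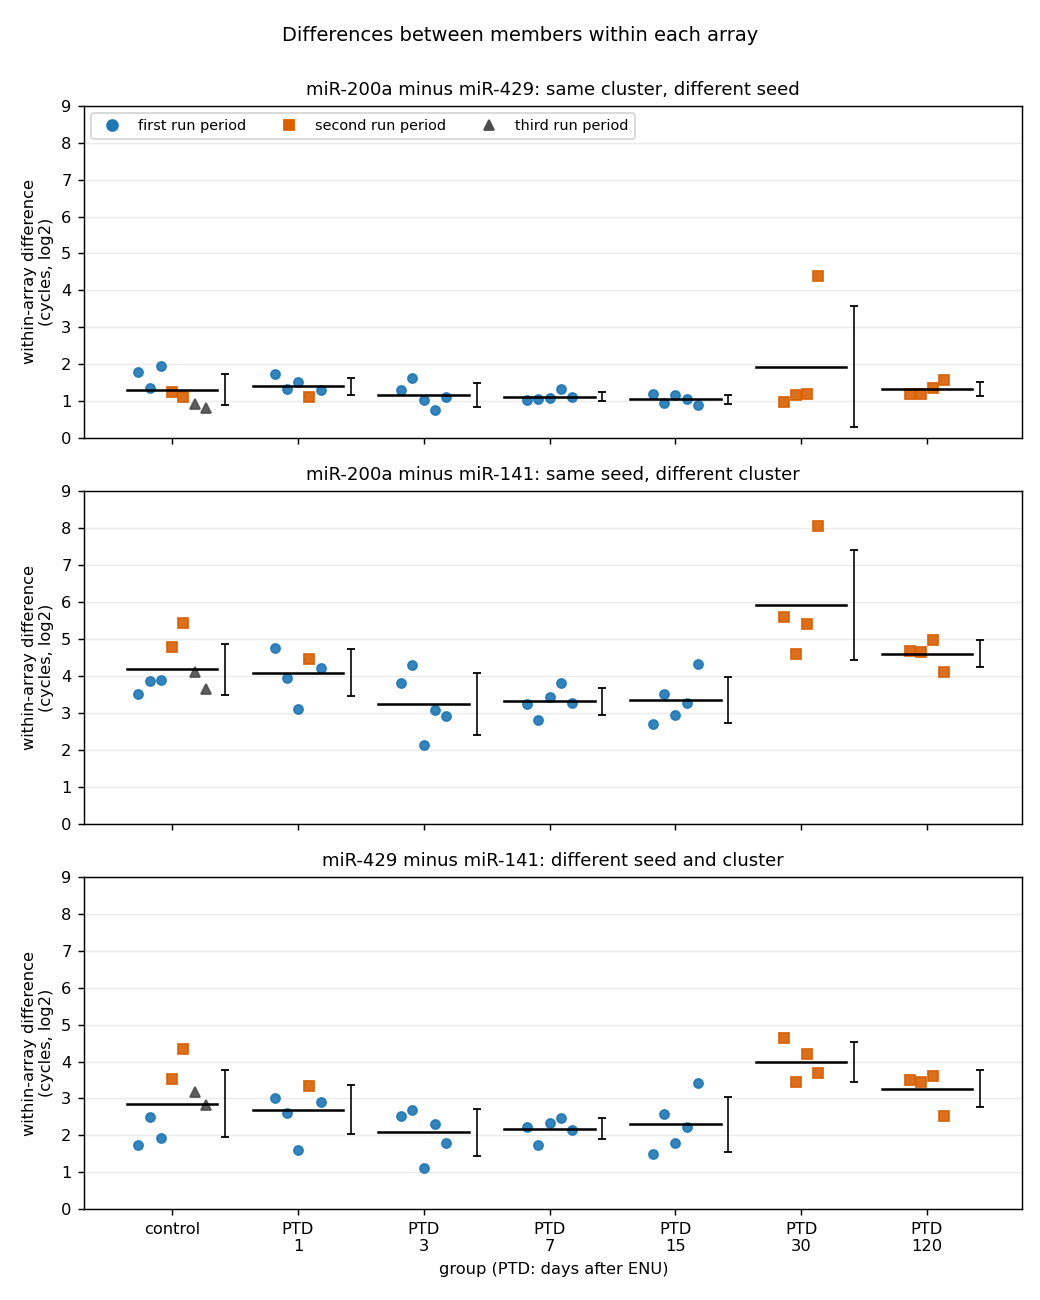
Difference between 2 members within each array, in cycles, for the 3 pairs; markers give the run period, lines the group mean and bars 1 SD, and all panels share an axis from 0 to 9. Apart from PTD 30 replicate 4 at 4.39 the cluster mates miR-200a and miR-429 stay between 0.77 and 1.96, while both differences to miR-141 are higher in the arrays of the second run period (medians 4.78 and 3.53) than in those of the first (3.48 and 2.26).

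The third question was whether members rose and fell together from liver to liver within a group. After subtracting each group's mean, miR-200a and miR-429 correlated with r = 0.82 over 35 arrays (Spearman rho = 0.89), each with the smallest permutation p that 100000 resamples within groups can give (1e-05). Leaving out the 2 arrays farthest from the median of miR-200a gave r = 0.79, and leaving out PTD 30 replicate 4 gave r = 0.94. Within the first run period r was 0.97 over 22 arrays and within the second 0.73 over 11, or 0.94 without PTD 30 replicate 4; in the second period no pair of members passed after adjustment (permutation p adjusted over 10 relations of 0.086 to 0.42). miR-429 and miR-141 gave r = 0.77 (rho = 0.59, permutation p = 9e-05 and 0.0013), which fell to 0.60 without PTD 30 replicate 4 and to 0.63 without the 2 arrays farthest in miR-429. miR-200a and miR-141 gave r = 0.58 (rho = 0.49, permutation p = 0.00028 and 0.0055), 0.63 without PTD 30 replicate 4 and 0.49 without the 2 arrays farthest in miR-200a. Within the first run period r was 0.77 for miR-429 with miR-141 and 0.71 for miR-200a with miR-141, and within the second 0.93 and 0.74, or 0.55 and 0.73 without PTD 30 replicate 4. These are 3 of 10 relations computed among the members and star forms, and the adjusted permutation p-values of the 3 were 0.0001, 0.0003 and 0.0007 for r and 0.0001, 0.0033 and 0.0071 for rho.

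Levels on one array share the reference RNAs, and the median within-group r with the other miRNAs of the array was 0.37 for miR-200a, 0.35 for miR-429 and 0.16 for miR-141. miR-429 ranked first of them in its correlation with miR-200a, and miR-200a first in that with miR-429. With the array median as reference these medians were 0.08, 0.06 and 0.08, and miR-200a with miR-429 still gave 0.72, or 0.91 without PTD 30 replicate 4. On that scale miR-141 took the first place for miR-429 and miR-200a the 2nd, an order that turned without PTD 30 replicate 4. The same-seed pair of miR-200a and miR-141 gave 0.57 with the array median; among the partners of miR-200a, miR-141 was the 7th there and the 80th with the reference RNAs. miR-429 ranked first for miR-141 over all arrays on both scales, and 2nd (reference RNAs) or 16th (array median) without PTD 30 replicate 4. For miR-141 the same-seed miR-200a was the 5th and 8th over all arrays on these scales, and the first and 4th without that array. Among the partners of miR-200a, miR-141 was then the 39th and 5th. Seen from miR-429, leaving out that array moved miR-141 from the 2nd place to the 88th (reference RNAs) and from the first to the 19th (array median).

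The star forms add the clusters' other products as far as the array holds them. miR-200b*, from the hairpin next to miR-200a, correlated within groups with miR-200a (r = 0.58), miR-429 (0.61) and miR-141 (0.53), with permutation p adjusted over 10 relations of 0.0031, 0.0003 and 0.00074. miR-200c*, from the hairpin next to miR-141, gave r = 0.18 with miR-141 (permutation p = 0.34; r = 0.013 without PTD 30 replicate 4), 0.51 with miR-200a and 0.47 with miR-429. With the array median as reference miR-200c* gave -0.0036 with miR-141 and 0.17 with each of the other two, while miR-200b* gave 0.38 with miR-200a, 0.42 with miR-429 and 0.51 with miR-141 (adjusted permutation p of 0.085, 0.011 and 0.0078). miR-200c* had Cts of up to 34.3, and a change smaller than its spread could not be seen there. Neither star form was a DEM at any PTD; the largest changes were 0.83 for miR-200b* at PTD 15 (limma adjusted p = 0.26) and 1.09 for miR-200c* at PTD 30 (limma adjusted p = 0.43). With only the controls labelled day 1, all of the first run period, miR-200c* at PTD 30 was called (1.66, limma adjusted p = 0.019), as were 37.5% of all miRNAs in that comparison. It was 0.67 with the controls labelled day 30 and 0.16 with those of the PTD 30 run period, and was called with neither.

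**Figure D5:**
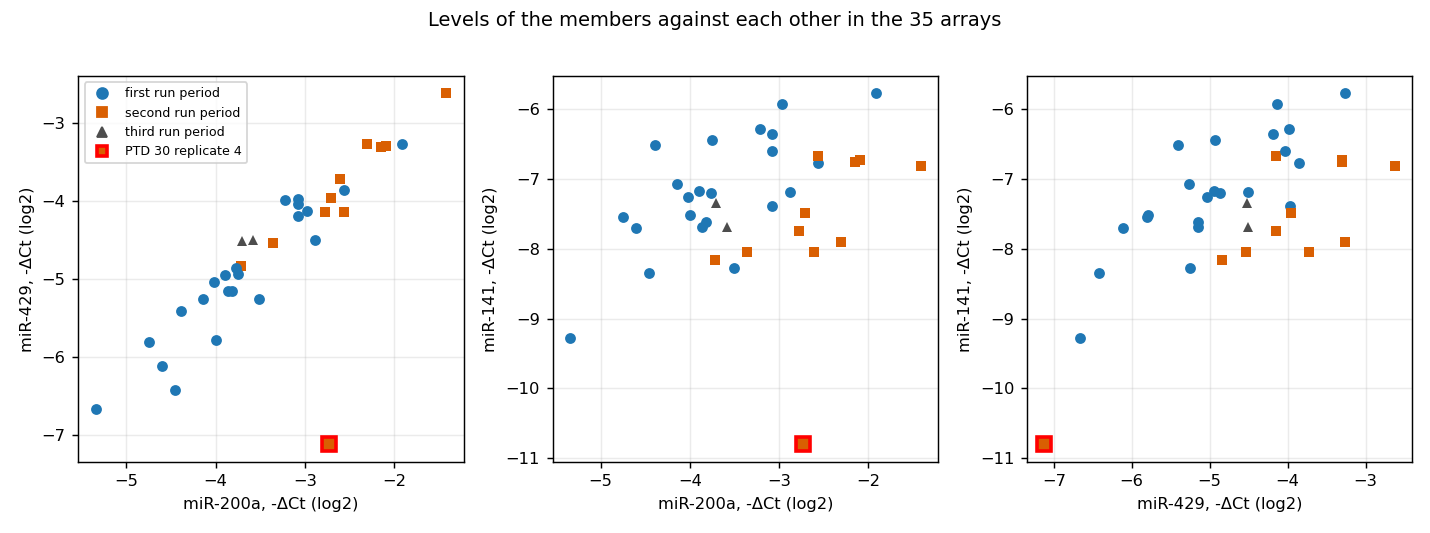
Level (-ΔCt, log2) of the members against each other in the 35 arrays, with marker and colour giving the run period and the red outline PTD 30 replicate 4. miR-200a and miR-429 lie along a line apart from that array (within-group r = 0.94 without it), and against miR-141 the arrays of the first and second run periods lie side by side.

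Over the 35 arrays, without subtracting group means, the 5 miRNAs most like each member were named by Pearson's r of -ΔCt, as a description. For miR-200a they were miR-7b (0.87), miR-30a (0.87), miR-872 (0.86), miR-429 (0.81) and miR-30b (0.81). The first 4 were also the nearest 4 with the array median as reference (0.67 to 0.71), where miR-30b fell to rank 102. For miR-429 they were miR-200a (0.81), miR-30b (0.79), miR-100 (0.78), miR-152 (0.76) and miR-30a (0.75), of which miR-30b was at rank 78 with the array median and the rest at ranks 1 to 6. For miR-141 they were miR-429 (0.63), miR-185 (0.62), miR-30c (0.61), miR-15a (0.60) and miR-200b* (0.60), and miR-200c*, from its own cluster, was not among them. With the array median miR-429 was at rank 19 for miR-141 and miR-185 led (0.69). Without PTD 30 replicate 4, miR-429 was the nearest to miR-200a and the reverse (0.96), and miR-429 was no longer among the 5 of miR-141, which miR-200b* led (0.67).

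Other miRNAs known from epithelia were set beside the family. Of the 7 on this list (miR-203, miR-205, miR-375, miR-31, miR-182, miR-183 and miR-96) 1 was called at 1 PTD: miR-96 was up-regulated at PTD 30 by 1.75 (SE 0.56, limma adjusted p = 0.43), where 1.60% of all miRNAs were called. The list's median log2 fold changes for PTD 1, 3, 7, 15, 30 and 120 were -0.32, -0.03, 0.71, 0.79, 0.79 and 0.66, against medians over all 376 of -0.37, 0.02, 0.19, 0.36, 0.54 and 0.46. The members of the list differed in sign at PTD 7 and 15: miR-205 had -1.16 and -1.20, miR-183 had 1.07 and 1.27 and miR-182 had 1.13 and 1.15, none of them called. The medians of the 3 members were -0.66, -0.27, -0.41, 0.19, 0.52 and 0.57 at the same PTDs. Without PTD 30 replicate 4 the PTD 30 medians were 1.33 for the members and 0.67 for all miRNAs.

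Bulk liver mixes cell types, and fewer cells of a type and less RNA per cell cannot be told apart. None of the 3 hepatocyte miRNAs (miR-122, miR-192, miR-194) and none of the 5 endothelial and stromal ones was called at any PTD. Of 6 leukocyte miRNAs, miR-150 (-1.72, limma adjusted p = 0.11) and miR-146a (-1.33, adjusted p = 0.67) were called lower at PTD 1 and miR-142-3p (1.35, adjusted p = 0.45) higher at PTD 120, against 1.33% of all miRNAs at each of these PTDs. Of 3 erythroid ones, miR-144 (1.52, adjusted p = 0.016) and miR-451 (1.04, adjusted p = 0.064) were called higher at PTD 15, against 11.4% of all miRNAs. At PTD 1 the members' median was -0.66, beside -0.94 (leukocyte), -0.68 (hepatocyte), -0.68 (endothelial and stromal) and 0.43 (erythroid). At PTD 15 it was 0.19, beside 1.04 (erythroid), 0.60 (endothelial and stromal), 0.20 (hepatocyte) and 0.03 (leukocyte). A part of other cell types in the members' values was not tested.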

How the data were processed

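Liver small RNA was reverse transcribed by the authors and run on 384-well SYBR Green arrays of 376 miRNAs, 4 reference RNAs and 4 control wells. The deposited values are threshold cycles from SDS 2.3, with a threshold line of 0.15 and up to 40 cycles, without normalization; a PCR array has no read depth, and the number of mice limits the precision. Well names came from the study's well list (names only). Here -ΔCt was computed against the mean of U6 and the small nucleolar RNAs snoRNA142, snoRNA202 and snoRNA251; the 15 wells without a Ct were treated as missing. Each PTD was compared with the 7 controls in limma 3.58.1 (R 4.3.3) with Benjamini-Hochberg adjustment over 376 miRNAs, and single values by exact permutation tests (numpy 2.4.6). Correlations used values minus the group mean and 100000 permutations within groups. The limma step was tested on simulated data. Replicates are separate mice. The members, the marker lists and the rule naming the 5 nearest miRNAs were chosen with earlier results of these data known. Alternatives were another reference scale, reference sets, Ct handling, controls, run period, covariates and leaving out each array.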

Additional observations from a re-analysis of the deposited data

Results flagged for a closer look

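Groups of 4 to 7 samples of the members, the star forms and the differences between members were searched for a value far from the rest by Dixon's criterion, which chance alone meets in about 1 in 20 groups. It was met by 4 values in 56 groups. miR-429 in PTD 30 replicate 4 (-7.12, the other 3 livers at -3.31 to -2.62) and the difference between miR-200a and miR-429 on the same array (4.39) were 2 of them, and both involve the late block of wells described above. miR-141 in control day 1 replicate 2 (-5.78) lay far above the other 6 controls, and 2 fold changes were called when this array was left out. The cause of none of these values was tested. The difference between miR-429 and miR-141 in PTD 120 replicate 4 (2.53) lay below the other 3 PTD 120 arrays, which held 3.44 to 3.60.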

How the results depend on the processing

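The 18 fold changes of the members gave a call in 2 of the alternatives tried, both of them without control day 1 replicate 2 (miR-200a at PTD 30 and miR-141 at PTD 15). In these comparisons 5 (PTD 30) and 37 (PTD 15) of 376 miRNAs were called. No reference set, handling of wells, choice of controls, single run period, fit of all groups or the methods' t-test gave a call of a member. Nor did a covariate, the Ct difference between the reverse transcription control wells. This covariate, and the correlations and PTD 30 values by run period without PTD 30 replicate 4, were chosen after seeing the data. Directions held in 474 of the others and turned in 25. Within the same run period miR-200a turned at PTD 15 (0.10) and PTD 120 (-0.036), and miR-429 at PTD 3 (0.30), 7 (0.15), 30 (-0.24, but 0.77 without PTD 30 replicate 4) and 120 (-0.19). With controls labelled day 1 only, miR-200a at PTD 15 (0.10), miR-429 at PTD 3 (0.30) and PTD 7 (0.15) and miR-141 at PTD 120 (-0.085) turned, and with controls labelled day 30 only miR-429 at PTD 15 (-0.23) did. The array median turned miR-429 at PTD 3 (0.030) and miR-141 at PTD 120 (-0.26), and lost the variation call of miR-200a (adjusted p = 0.25). Leaving out snoRNA251 turned miR-200a at PTD 15 (0.092). The cause of these turns was not tested.

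Leaving out 1 array at a time gave -0.27 to 0.16 (PTD 15) and 0.89 to 1.36 (PTD 30) for miR-200a, -0.11 to 0.41 (PTD 15) and 0.03 to 1.53 (PTD 30) for miR-429, and 0.56 to 1.03 (PTD 15), -1.05 to 0.30 (PTD 30) and -0.050 to 0.44 (PTD 120) for miR-141. The other 11 kept their sign but not their size, as for miR-200a at PTD 1 (-1.01 to -0.31), miR-429 at PTD 3 (-0.57 to -0.045) and miR-141 at PTD 7 (0.052 to 0.54). The adjusted p of the variation test ran from 0.0094 to 0.081 for miR-200a and from 0.034 to 0.65 for miR-429. The change of miR-200a minus miR-429 ran from -0.00027 to 0.19 at PTD 1, -0.20 to 0.94 at PTD 30 and -0.063 to 0.13 at PTD 120. At PTD 1 that of miR-200a minus miR-141 ran from -0.25 to 0.16 and that of miR-429 minus miR-141 from -0.36 to 0.10.

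No within-array difference passed its adjusted threshold under any alternative. Without PTD 30 replicate 4 and within the same run period, miR-141 at PTD 30 turned to 0.61 and miR-200a minus miR-429 to -0.070. Within the same run period the turned changes were, for miR-200a minus miR-429, -0.23 at PTD 1. For miR-200a minus miR-141 they were 0.24 at PTD 1 and -0.50 at PTD 120. For miR-429 minus miR-141 they were 0.48, 0.030, 0.13, 0.25 and -0.66 for PTD 1, 3, 7, 15 and 120. The last pair at PTD 3, 7 and 15 has the same values with controls labelled day 1 only, which are the first period's controls. With those controls the PTD 1 changes were -0.30, 0.33 and 0.63 for the 3 pairs, and miR-200a minus miR-429 was -0.37 at PTD 120. With controls labelled day 30 only miR-200a minus miR-429 was 0.14, 0.10 and 0.026 for PTD 3, 7 and 15, and miR-429 minus miR-141 was -0.20 at PTD 120. In the second run period alone the within-group r lost significance at 11 arrays: 0.73 for miR-200a with miR-429, 0.74 for miR-200a with miR-141 and 0.93 for miR-429 with miR-141, and without PTD 30 replicate 4 they were 0.94, 0.73 and 0.55 (adjusted permutation p of 0.086 to 0.42).

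The labels give no pairing, and replicate numbers did not pair the mice in general: the correlation of deviations between same-numbered arrays of controls and treated groups ran from -0.35 to 0.47 over 42 pairs, 8 of them over 0.1, of which 4 were all the pairs of the controls labelled day 30 with PTD 3. A replicate block gave 1.20 for miR-200a at PTD 30, 0.96 for miR-141 at PTD 15 and no call of a member, and 27 calls in place of 43 at PTD 15 and 5 in place of 8 at PTD 3 over all miRNAs. Calls over all 376 miRNAs changed more with other choices: with the controls labelled day 1 they were 30 in place of 8 (PTD 3), 124 in place of 37 (PTD 7), 152 in place of 43 (PTD 15) and 105 in place of 5 (PTD 120), with 37.5% in place of 1.60% of all miRNAs at PTD 30, and with those labelled day 30 they were 49 in place of 5 at PTD 1 and 23 at PTD 3. The array median gave 18 at PTD 3 and 68 at PTD 7, the filter on mean Ct 11 and 24 at PTD 7 and 15, a single fit of all groups 18 at PTD 3 and 12 at PTD 120, and the covariate 13 and 16 at PTD 30 and 120. The 95% intervals of the members' log2 fold changes were 1.77 to 3.50 wide, with 4 or 5 treated mice against 7 controls run in 3 periods.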
